A study of Mus musculus with 43 samples.

Results

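Untreated lasered mouse retina, with 5 libraries taken 3 days after the laser and 5 taken 7 days after it, was compared to ask how the retinal transcriptome differed between these days without any treatment. These are 10 of 43 libraries in the series, chosen by their labels among the first 31 columns of the count table. In those columns 1 library of the same groups was left out for its Y-linked transcripts. Male control 3 dpl replicates 3 and 4, in the last 12 columns, were not in the comparison either. All 10 came from nine-week-old C57BL/6J mice of the control group, which received the laser lesion and no short-chain fatty acids (SCFA). The 3 days post-laser (dpl) group held 3 female and 2 male libraries, and the 7 dpl group held 2 female and 3 male libraries. Each library was a pool of 2 retinas from 2 different animals, so that the spread between libraries is smaller than that between single eyes. No unlasered retina was analysed here, so that the values show differences between 2 days after an injury and not the size of the injury response.

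In this model a laser burn breaks Bruch's membrane under the retina, and vessels of the choroid grow through the break (choroidal neovascularization, CNV). The injured retina responds with microglial activation, entry of blood-derived myeloid cells, and gliosis of Müller glia and astrocytes, in which glial cells raise intermediate filaments and stress genes. Only part of each retina is burned, and RNA of the whole retina was sequenced, so that fewer cells of a type and less RNA per cell cannot be told apart in these values.

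The 10 libraries held between 14826957 and 20151172 counts, and 3 counts were worth 0.152 to 0.198 CPM (counts divided by the scaled size of the library), below which a gene is not reported as present. The tissue matched its label, with the photoreceptor arrestin gene Sag at 8389 to 10520 CPM. Of the markers of infiltrating cells, the T cell gene Cd3e lay at no more than 0.0603 CPM and the granulocyte and macrophage gene Chil3 at no more than 0.389 CPM. Others were present, and a list of monocyte, macrophage and granulocyte genes summed to 17.38 to 23.65 CPM at 3 dpl and 14.09 to 19.91 CPM at 7 dpl. The monocyte gene Ccr2 had counts too low for the test. It lay above the value of 3 counts in 4 of 5 libraries at 3 dpl, with up to 0.965 CPM. In all 5 libraries of 7 dpl in the comparison it lay below that value, with at most 0.105 CPM. Female control 7 dpl replicate 2, outside the comparison, held 0.266 CPM of Ccr2, above its own value of 3 counts (0.159 CPM). Female control 7 dpl replicate 2 was left out, because it held the Y-linked Ddx3y at 16.4 CPM, where the other 5 female libraries held 0 and the 5 males 42.0 to 59.1 CPM. Male control 7 dpl replicates 2 and 3 carried myelin transcripts, which are described apart. One library at 3 dpl carried lens transcripts, another carried skeletal muscle transcripts, and male control 3 dpl replicate 1 stood high in several injury and matrix genes.

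No single gene passed the test between the days. Of 16823 genes tested with sex in the model, 0 (0% of the genes) had an adjusted p under 0.1 by edgeR's quasi-likelihood test, and the smallest adjusted p was 0.837. Genes with higher values at 7 dpl and an unadjusted p under 0.05 numbered 492, which is 2.92% of the genes, and those with lower values 444, which is 2.64%. The 5.56% in both directions is close to the share that the threshold itself allows. DESeq2 gave 1 gene with an adjusted p under 0.1, the pericyte gene Rgs5, at a fold change below the threshold for a differentially expressed gene (DEG), which is an absolute log2 fold change over 1.

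The absence of calls has a bounded size. The log2 fold changes of 90% of the genes lay between -0.32 and 0.42, with a median of -0.01, and the median standard error (SE) was 0.128. The 95% interval of the fold change lay wholly within 2-fold in both directions for 87% of the genes tested, and for 99.5% of the 10126 genes with a mean over 10 CPM. In the same libraries and the same fit, sex gave 18 genes past the test and 7 DEGs, 6 of them on chromosomes X and Y. The libraries of the 2 days did not overlap, with higher values at 7 dpl, for 69 genes (0.41% of the genes tested), and with lower values at 7 dpl for 90 genes (0.535%).

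The genes that stood closest to the threshold are described next, chosen after their values were seen as the 15 higher and 14 lower named genes with the smallest p whose days did not overlap. That choice used these values, so that no test of them is implied, and each has an adjusted p of 0.837.

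Spp1 (chromosome 5, 104435118 to 104441050 on GRCm38), which encodes osteopontin, a secreted glycoprotein made by activated microglia and macrophages among other cells, had the smallest p. Which cells of these retinas held Spp1 was not tested. The 3 female libraries at 3 dpl held 70.0, 34.5 and 71.5 CPM of Spp1 and the 2 male libraries 132 and 39.3 CPM. At 7 dpl the 2 female libraries held 26.7 and 20.9 CPM and the 3 male libraries 27.4, 28.5 and 28.7 CPM. All 5 libraries of 7 dpl lay below the lowest of 3 dpl, and they lay close together (SD 3.19 CPM) where those of 3 dpl were spread over a wide range (SD 38.8 CPM). The log2 fold change of Spp1 was -1.44 (SE 0.268, 95% interval -2.01 to -0.87, unadjusted p = 8.77e-05). The highest library, male control 3 dpl replicate 1, made up part of this size, and without it the log2 fold change was -0.97. Without male control 3 dpl replicate 2, the library with muscle transcripts, the log2 fold change was -1.67 with edgeR's adjusted p of 0.0416. Between -1.27 in females and -1.59 in males, the change of Spp1 did not differ by a test of the difference (edgeR's adjusted p = 0.894).

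Genes of blood vessels were among the lower genes. Rgs5 (chromosome 1, 169655501 to 169695813), a regulator of G-protein signalling that marks pericytes, held 101, 94.9 and 83.4 CPM in females and 84.4 and 102 CPM in males at 3 dpl. At 7 dpl it held 69.9 and 73.8 CPM in females and 70.7, 61.7 and 63.1 CPM in males. Every library of 7 dpl was below every one of 3 dpl, and the spread was small at both days, with means of 93.0 ± 8.74 and 67.8 ± 5.20 CPM (SD, n = 5 each). The log2 fold change was -0.43 (SE 0.084, 95% interval -0.61 to -0.25, unadjusted p = 0.000142), an interval that ends well short of a 2-fold change. Vwf, the clotting factor that endothelial cells store and secrete, held 17.2, 10.7 and 11.2 CPM in females and 13.3 and 15.7 CPM in males at 3 dpl. At 7 dpl Vwf held 9.79 and 7.71 CPM in females and 6.63, 9.23 and 9.72 CPM in males. None reached the lowest value of 3 dpl, and the log2 fold change was -0.66 (95% interval -0.99 to -0.32). Adgrl4, an adhesion receptor of endothelial cells, had means of 8.98 ± 1.19 and 5.91 ± 1.15 CPM (SD) and a log2 fold change of -0.55 (SE 0.154).

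Female control 7 dpl replicate 2, which was left out for its Y-linked transcripts, did not hold the low vessel values of the other 7 dpl libraries. It held 88.3 CPM of Rgs5 and 15.1 CPM of Vwf, both inside the range of 3 dpl. Adding it moved the log2 fold change of Rgs5 from -0.43 to -0.37 and that of Vwf from -0.66 to -0.48.

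Of the other lower genes, Mgp, which encodes a secreted inhibitor of calcification, had means of 25.9 ± 4.47 CPM at 3 dpl and 17.5 ± 2.13 CPM at 7 dpl (SD) and a log2 fold change of -0.57 (SE 0.127). Cd24a, a surface glycoprotein, had means of 15.03 ± 2.12 and 9.48 ± 1.46 CPM and a log2 fold change of -0.64 (SE 0.136). The imprinted long noncoding RNA H19 was low at both days, with 1.097 to 3.80 CPM at 3 dpl and 0.482 to 1.01 CPM at 7 dpl, and its log2 fold change was -1.56 (SE 0.348). Which cells hold these transcripts was not tested. The remaining lower genes were Sptssb, Cryzl2, Sdcbp, Gda, Kcnd2, Hint3 and Klf10, with log2 fold changes between -1.71 (Gda) and -0.28 (Sdcbp). Gda lay under the value of 3 counts in male control 7 dpl replicate 3, at 0.0523 CPM.

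Among the genes with higher values at 7 dpl, Dnah10, a dynein heavy chain of motile cilia, had the smallest p. It held 0.371, 0.404 and 0.845 CPM in females and 0.325 and 0.509 CPM in males at 3 dpl. At 7 dpl it held 1.47 and 1.32 CPM in females and 1.498, 1.28 and 1.202 CPM in males. The 2 days were apart in all 10 libraries, at a low level, and the log2 fold change was 1.52 (SE 0.318, 95% interval 0.84 to 2.20). Female control 7 dpl replicate 2 held 0.266 CPM of Dnah10, below every 3 dpl library.

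Cfap70 and Wdr78, which also encode parts of the ciliary axoneme and are grouped with Dnah10 after their values were seen, had log2 fold changes of 0.68 (SE 0.188) and 0.35 (SE 0.1). Wdr78 was the more abundant, with 39.3 ± 4.09 CPM at 3 dpl and 49.1 ± 4.96 CPM at 7 dpl (SD). Female control 7 dpl replicate 2 held 1.43 CPM of Cfap70 and 27.4 CPM of Wdr78, below every 3 dpl library for both. Trpm1, the cation channel through which ON bipolar cells answer light, held between 104.5 and 135 CPM at 3 dpl and between 138 and 160.2 CPM at 7 dpl. Its log2 fold change was 0.34 (95% interval 0.14 to 0.54). Mov10, an RNA helicase, had means of 3.59 ± 0.369 and 5.70 ± 0.542 CPM and a log2 fold change of 0.67 (SE 0.154). Abi3bp, a matrix protein, had means of 4.43 ± 0.541 and 7.36 ± 1.598 CPM and a log2 fold change of 0.76 (SE 0.172). The other higher genes were Tbx22, Ins2, Mfsd2b, Olig3, Tmprss7, Cyp7b1, Sema4c, Adamts4 and Ppargc1b, with log2 fold changes between 0.26 (Ppargc1b) and 1.92 (Tbx22). Tbx22 lay under the value of 3 counts in female control 3 dpl replicates 2 and 3, at 0.116 and 0.0603 CPM. Adamts4 held 2.30 CPM in male control 7 dpl replicate 3, which carried myelin transcripts, and 0.66 to 0.80 CPM in the rest of 7 dpl. The part of myelin RNA in that value was not tested.

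**Figure D1:**
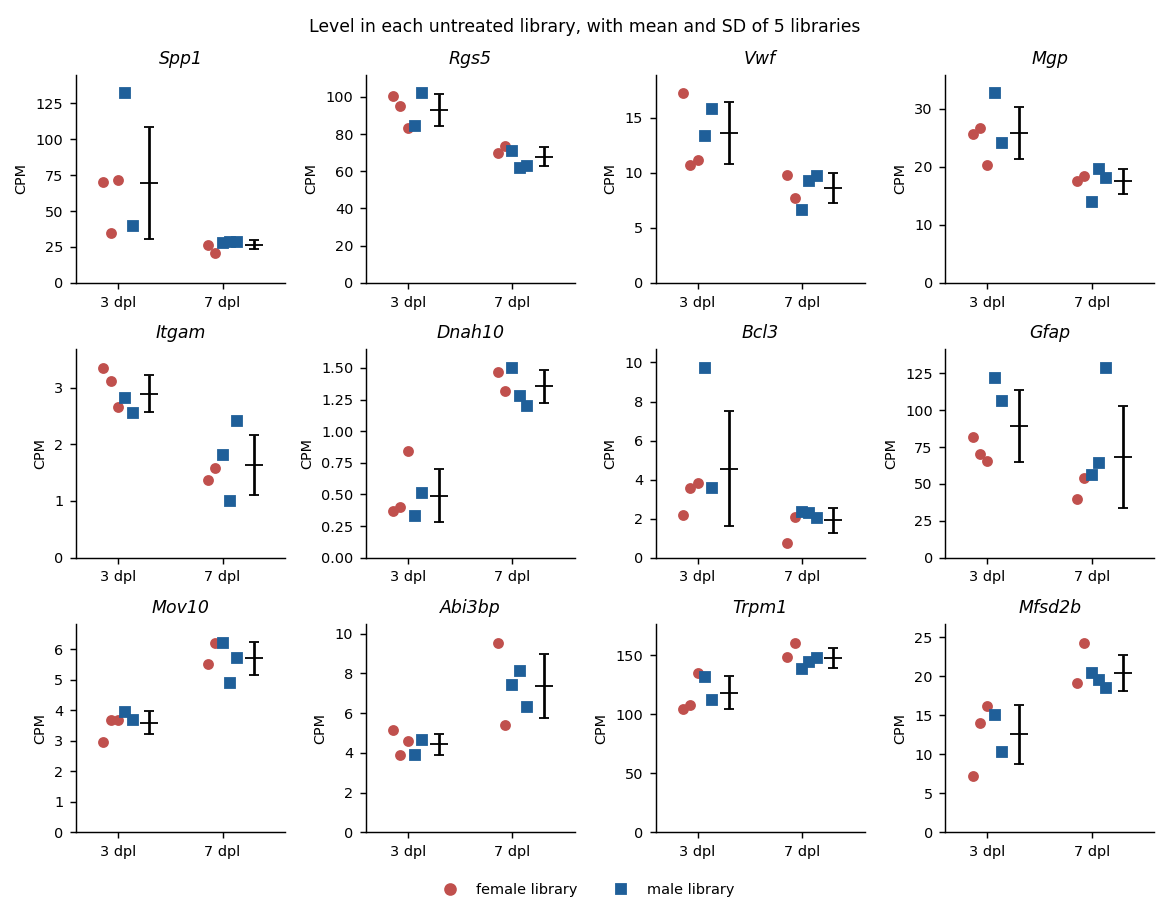
Each panel plots the level of 1 gene in CPM (vertical axis, from 0) in the untreated libraries at 3 and 7 dpl, with female and male libraries as separate symbols and the mean and SD of 5 libraries beside them. For Spp1 the 7 dpl libraries lie between 20.9 and 28.7 CPM and the 3 dpl libraries between 34.5 and 132 CPM.

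Gene lists of retinal cell types and injury responses were then described by their counts and their medians. Over all genes tested the median log2 fold change was -0.01 and 5.56% of the genes had an unadjusted p under 0.05. Of the 32 lists, none held a gene that passed the adjusted threshold. Some genes stand in more than 1 list, so that the lists are not independent. Cd9 is in the Müller glia and disease-associated microglia lists, and Itgam is in the homeostatic microglia and complement lists. Sparc is in the homeostatic microglia and matrix lists, and Timp1 is in the gliosis and matrix lists.

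Gliosis and injury genes leaned lower at 7 dpl. Of 33 tested, 30 had a negative log2 fold change, and the median was -0.26. At an unadjusted p under 0.05, 10 had lower values and 0 higher. The list median was -0.09 in males and -0.39 in females, a difference that was not tested. Gfap, the intermediate filament of reactive glia, held 81.6, 70.0 and 65.3 CPM in females and 122 and 106.5 CPM in males at 3 dpl. At 7 dpl it held 39.7 and 54.1 CPM in females and 56.3, 64.1 and 129 CPM in males. The first 4 of these 7 dpl libraries lay below all of 3 dpl, and the last, male control 7 dpl replicate 3, was the highest of all 10. That library also held the most myelin RNA, and the part of that RNA in its Gfap value was not tested. The log2 fold change of Gfap was -0.53 (95% interval -0.93 to -0.13) with all libraries and -0.74 without both myelin-carrying males. Bcl3, a nuclear partner of NF-kappa-B, held 2.18 to 9.71 CPM at 3 dpl and 0.761 to 2.35 CPM at 7 dpl, and its log2 fold change was -1.39 (SE 0.316). Lif, a cytokine of the injured retina, had means of 0.909 ± 0.234 and 0.423 ± 0.183 CPM (SD) and a log2 fold change of -1.12 (SE 0.377). Timp1, an inhibitor of matrix metalloproteinases, and Hmox1, a heme-degrading stress enzyme, were high in a single library. Male control 3 dpl replicate 1 held 11.2 CPM of Timp1, where the other 4 libraries of 3 dpl held 0.866 to 3.02 CPM, and 21.6 CPM of Hmox1, where the others held 6.01 to 8.28 CPM. Without that library 6 of the 33 genes had an unadjusted p under 0.05, all lower, the median was -0.23, and the log2 fold changes of Timp1 and Hmox1 went from -1.18 to -0.23 and from -0.75 to -0.20.

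Müller glia genes also leaned lower, by small amounts. Of 20 tested, 5 had an unadjusted p under 0.05 with lower values and 1 with higher, with a median of -0.17. Crym, a thyroid hormone binding protein, had means of 97.7 ± 17.0 and 72.3 ± 20.4 CPM and a log2 fold change of -0.49 (SE 0.142). Glul, the glutamine synthetase that clears glutamate, had means of 2896 ± 549 and 2293 ± 318 CPM and a log2 fold change of -0.30 (SE 0.126). The higher gene was the transporter Slc6a13, with a log2 fold change of 0.57 (SE 0.257). The count of 5 was 10 without male control 3 dpl replicate 1 and 2 without replicate 2 of either sex at 3 dpl, and it was also 2 when female control 7 dpl replicate 2 was added, with a median of -0.06. The medians of this list differed by sex, with 0.03 in males and -0.34 in females, a difference that was not tested for the list.

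Microglial genes leaned lower without a pass of the test. Of 20 homeostatic microglia genes 19 had a negative log2 fold change, with a median of -0.27, and 3 had an unadjusted p under 0.05, all lower. Their summed level overlapped between the days, at 333 to 502 CPM at 3 dpl and 304 to 424 CPM at 7 dpl. Female control 7 dpl replicate 2 summed to 489 CPM, and with it 2 genes were lower and the median was -0.175. Itgam, the CD11b subunit of complement receptor, was the member whose days did not overlap, at 2.55 to 3.34 CPM at 3 dpl and 1.001 to 2.404 CPM at 7 dpl. Its log2 fold change was -0.81 (95% interval -1.33 to -0.28). Ptprc, the CD45 phosphatase of all white blood cells, had means of 1.47 ± 0.654 and 0.824 ± 0.185 CPM. The defining microglial genes Cx3cr1, P2ry12 and Tmem119 overlapped between the days, between 2.23 and 8.68 CPM in all 10 libraries. Genes of disease-associated microglia had a median of -0.10 over 26 members, with 4 lower at an unadjusted p under 0.05, namely Spp1, Cd9, Lgals3 and Lyz2. Of these, Cd9 is also counted among the lower Müller glia genes. Male control 3 dpl replicate 1 held 11.4 CPM of Lgals3 and 55.3 CPM of Lyz2, where the other 4 libraries of 3 dpl held 4.56 to 5.30 and 7.57 to 22.7 CPM, and without it 2 members were lower and 2 higher. With female control 7 dpl replicate 2 added, the median of this list turned to 0.02.

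Other immune lists gave few low p values. Monocyte, macrophage and granulocyte genes were measured for 8 of 20, of which Arg1, the arginase of repair macrophages, was the gene with an unadjusted p under 0.05. Arg1 held 1.11 to 6.72 CPM at 3 dpl and 0.461 to 1.55 CPM at 7 dpl, with a log2 fold change of -1.63 (SE 0.416). Of 13 chemokine and cytokine genes tested, Cxcl10 and the inflammasome cytokine Il18 had higher values at an unadjusted p under 0.05 and Lif lower. Cxcl10, an interferon-induced chemokine, lay between 0.163 and 0.849 CPM at 3 dpl and between 0.406 and 2.56 CPM at 7 dpl, with a log2 fold change of 1.44 (SE 0.520). The interferon response list had 0 of 29 genes higher and 1 lower at an unadjusted p under 0.05 and a median of -0.11. Complement (21 genes, median -0.15) and antigen presentation genes (20 genes, median -0.14) had 1 and 2 genes with lower values at that threshold. None had higher values there. The antigen presentation median was 0.015 in males and -0.252 in females, a difference that was not tested.

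Vessel genes, a list that holds the leading genes Rgs5 and Vwf, had 18 negative and 7 positive log2 fold changes. Of 25 endothelial and pericyte genes, 7 had an unadjusted p under 0.05 with lower values and 0 with higher, and the median log2 fold change was -0.21, with -0.27 in males and -0.05 in females. Their summed level lay between 380 and 433 CPM in the 3 dpl libraries and between 341 and 370 CPM in the 7 dpl libraries. Without Rgs5 and Vwf the days overlapped in the summed level of the other 23 genes, at 285 to 315 CPM at 3 dpl and 269 to 288 CPM at 7 dpl. Besides Rgs5 and Vwf, Ly6c1 was lower in every library of 7 dpl, with means of 28.8 ± 3.02 and 22.6 ± 2.396 CPM (SD), and reads of its near-identical neighbours could be split among them. Mfsd2a, the lipid transporter that keeps the blood-retina barrier closed, had means of 4.79 ± 1.09 and 3.06 ± 0.800 CPM and a log2 fold change of -0.69 (SE 0.232). The pan-endothelial Pecam1 overlapped entirely, at 8.89 to 11.5 CPM at 3 dpl and 8.99 to 12.3 CPM at 7 dpl. The library left out for Y-linked transcripts summed to 423 CPM, inside the range of 3 dpl, and with it the counts were 4 lower and 2 higher and the median -0.11. Angiogenesis and hypoxia genes, of which 27 were tested, had 2 with lower values at an unadjusted p under 0.05 and a median of -0.12.

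Among matrix genes 1 library stood high. Of 33 tested, 7 had an unadjusted p under 0.05 with lower values at 7 dpl and 2 with higher, with a median of -0.12. By sex the matrix median was -0.34 in males and -0.01 in females, which was not tested. Male control 3 dpl replicate 1 held 47.9 CPM of Thbs1, 6.67 CPM of the collagen crosslinking enzyme Lox, and 16.1 CPM of the collagen gene Col1a1. The other 3 dpl libraries held at most 13.6, 1.03 and 4.10 CPM of these genes. Without that library 1 gene was lower and 2 were higher, the median was 0.03, and the log2 fold change of Col1a1 went from -1.23 to 0.10. The 2 untreated males of 3 dpl in the later columns of the table held 7.88 and 3.34 CPM of Col1a1, where the 7 dpl libraries held 1.28 to 3.10 CPM.

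Neuronal lists had medians between -0.17 and 0.12 over both sexes. Rod genes had a median of -0.06 over 30 members, with 3 lower at an unadjusted p under 0.05, and Nr2e3, the receptor that fixes rod identity, did not overlap between the days (946 ± 52.2 and 795 ± 81.4 CPM, SD). Cone genes had a median of -0.08 with 1 of 16 lower. Bipolar genes had a median of 0.12 with 2 of 20 higher, Trpm1 and its partner Gpr179, and without the myelin-carrying males the median was -0.01. By sex the bipolar median was 0.37 in males and -0.13 in females. All 20 ganglion cell genes had a negative log2 fold change, with a median of -0.17, and 2 had an unadjusted p under 0.05, or 0 with a median of -0.08 when female control 7 dpl replicate 2 was added. The lowest of these p belonged to Slc17a6, the vesicular glutamate transporter, with means of 49.8 ± 15.8 and 33.9 ± 3.82 CPM and a log2 fold change of -0.48 (SE 0.158). Amacrine and horizontal cell genes had no member at that threshold and a median of -0.06, with 0.28 in males and -0.34 in females. These differences between the sexes were not tested for the lists.

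Of 29 immediate early genes 4 were lower at an unadjusted p under 0.05, Klf10, Atf3, Klf2 and Klf4, with a list median of -0.10. That median was 0.19 in males and -0.37 in females, and Klf2, a flow-responsive transcription factor of endothelium, had -0.21 in males and -1.01 in females. The difference was not tested for the list, and that of Klf2 did not pass the test (edgeR's adjusted p = 0.62). Cell division genes had a median of -0.06 over 30 members, and Cdk1, the kinase that drives mitosis, was among the 2 lower genes, with means of 0.691 ± 0.270 and 0.343 ± 0.137 CPM (SD). Cholesterol synthesis, the circadian clock, mitochondrial mRNA and lymphocyte and red cell genes had no member at an unadjusted p under 0.05. Heat shock, p53 target and NRF2 target genes had 1, 1 and 2 members with lower values at that threshold, glucocorticoid targets 1 higher and 2 lower, and ribbon synapse genes 1 higher. Of 11 tested genes that the study names at 7 dpl, 2 were higher at that threshold, Mbp and Cldn11, both of myelin, and that list was chosen by the study on some of these samples.

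**Figure D2:**
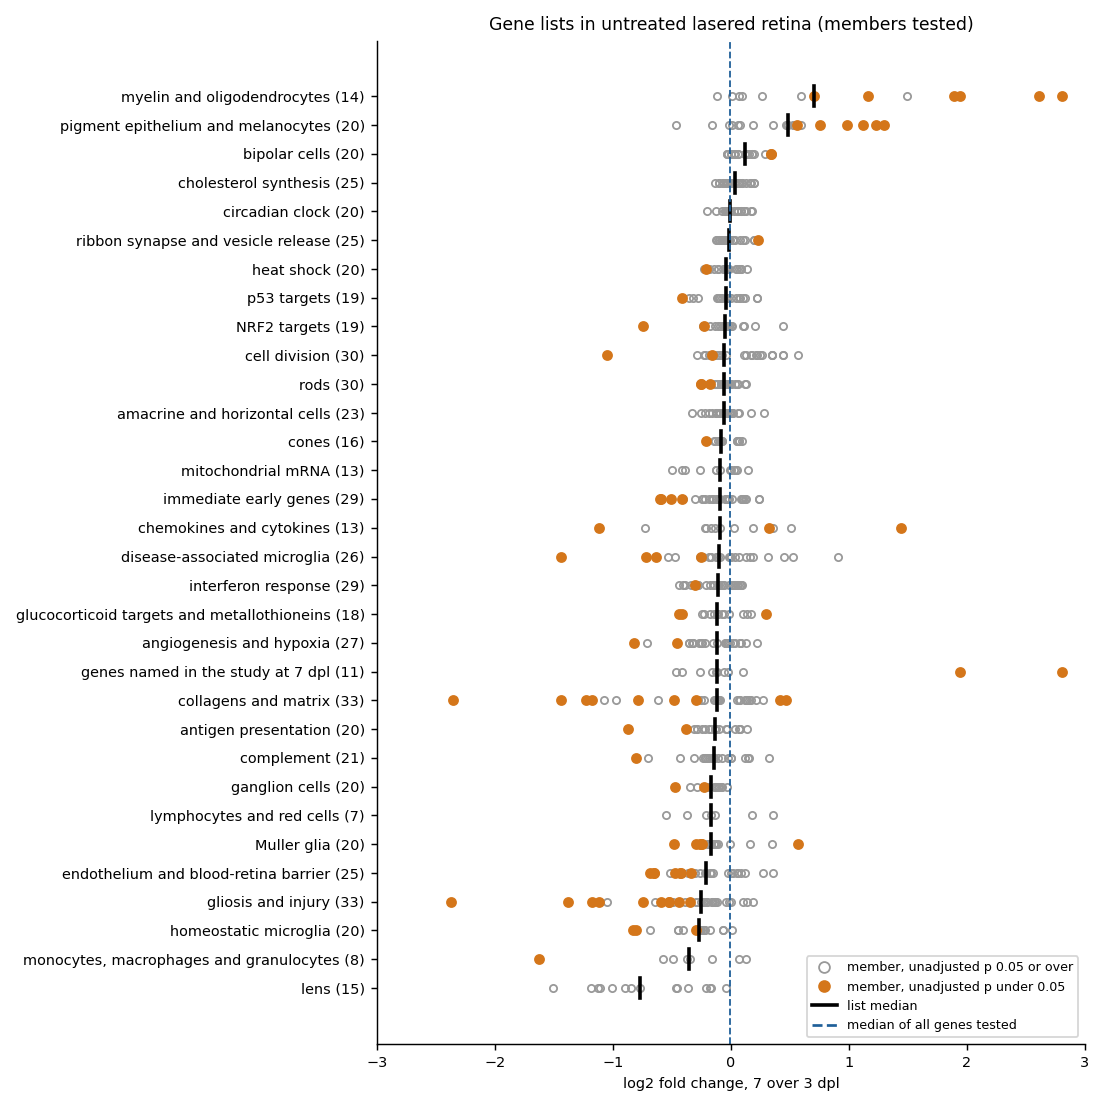
Each row plots the log2 fold change, 7 over 3 dpl, of every tested member of 1 gene list as a circle, filled orange where the unadjusted p was under 0.05, with the list's median and a dashed line at the median of all genes (-0.01). Orange circles in the gliosis and vessel rows lie to the left of the line (10 and 7 members), and those of the pigment and myelin rows lie to the right (6 and 6 members).

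Transcripts of neighbouring tissues differed from library to library and moved the lists in which they stood. Pigment epithelium and melanocyte genes had a median log2 fold change of 0.48 over 20 members, with 6 higher at an unadjusted p under 0.05. The melanosome gene Pmel held 3.03 and 45.7 CPM in the 2 female libraries of 7 dpl, more than a 10-fold range within a day and a sex, and 15.1 to 32.1 CPM in the 3 male libraries. At 3 dpl it held 4.79 to 15.1 CPM. Tyrp1, a melanin synthesis enzyme, held 5.43 to 12.2 CPM at 3 dpl and 7.64 to 35.9 CPM at 7 dpl, with a log2 fold change of 1.12 (SE 0.327). How much pigment epithelium came off with each retina was not tested.

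Ganglion cell axons of the mouse are myelinated behind the eye, and myelin transcripts were high in 2 male libraries. Mbp, the myelin basic protein gene, held 147 and 491 CPM in male control 7 dpl replicates 2 and 3 and 14.2 to 21.2 CPM in the other 8 libraries. Of 14 myelin and oligodendrocyte genes tested, 6 had an unadjusted p under 0.05, all higher, with a median of 0.70. Without these libraries 12 were tested, 1 was higher and the median was 0.20. Lens crystallins were high in female control 3 dpl replicate 2, with 160.2 CPM of Cryaa against 0.434 to 37.3 CPM in the other 9, and that library also held 23.3 CPM of the keratin Krt5. The lens list had a median of -0.78 over 15 genes with none at an unadjusted p under 0.05, and without that library the median was 0.93. Male control 3 dpl replicate 2 held 11.1 CPM of Myh4, a fast skeletal muscle myosin, where the other 9 libraries held 0 to 0.813 CPM.

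**Figure D3:**
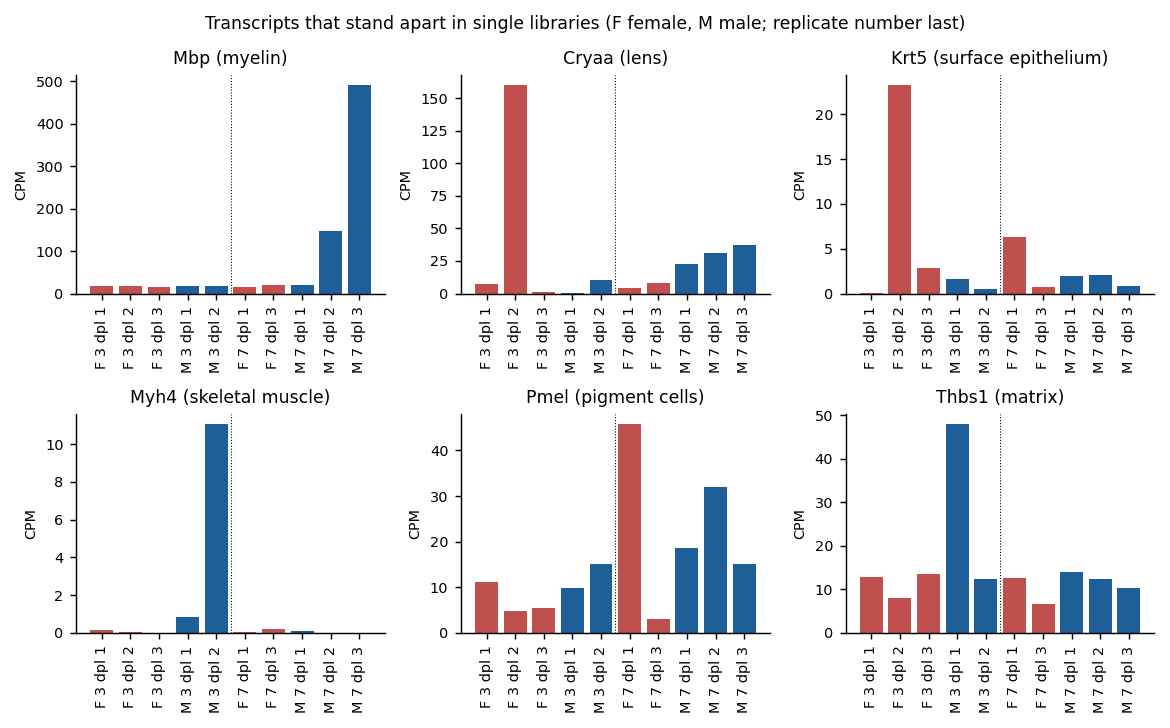
Bars plot the level in CPM (vertical axes, from 0) of transcripts that stand apart in single libraries, with 1 bar for each of the 10 libraries and a line between 3 and 7 dpl. The tallest bars are 491 CPM of Mbp in male 7 dpl replicate 3 and 160.2 CPM of Cryaa in female 3 dpl replicate 2.

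An interaction term of day and sex, in a fit of 4 groups, asked whether males and females changed differently over time. Of 17307 genes, 8 DEGs (0.0462%) were called, all at edgeR's adjusted p of 0.0911. Within males there were 3 DEGs (0.0173%), and within females 0 (0% of the genes), with a smallest adjusted p of 0.219. Genes with an unadjusted p under 0.05 numbered 1766 in females, 889 in males and 1424 for the difference, and DESeq2 gave 12 DEGs in females. The count of calls of the difference was 0 when female control 7 dpl replicate 2 was added and 0 without both myelin-carrying males, and it lay between 0 and 38 when each library was left out in turn.

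Of the 8 genes, 4 were mitochondrial mRNA or its copies in the nuclear genome. Gm28661 held 137, 231 and 193 CPM in females and 367 and 508 CPM in males at 3 dpl. At 7 dpl it held 212 and 213 CPM in females and 159.9, 139 and 135 CPM in males. The males at 3 dpl were thus above all other libraries, and the change was -1.58 in males (SE 0.184, edgeR's adjusted p = 0.00905) and 0.21 in females (SE 0.186). Gm28438 and Gm10222 differed the same way, by -1.51 and -1.72 on the log2 scale in males minus females, and mt-Atp6 by -2.13 (SE 0.348). mt-Atp6, a subunit of the ATP synthase, held 330 and 453 CPM in the males of 3 dpl, 108.0 to 194 CPM in the males of 7 dpl, and 130 to 319 CPM in the females of both days.

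Gm28661, Gm10222 and Gm28438 lie on the minus strand of chromosome 1, among 7 copies between 24611535 and 24616197 on GRCm38. Over their whole length, Gm28661 is identical to mt-Co2 over 681 bases and Gm10222 to mt-Nd4l over 294 bases, and Gm28438 differs from mt-Nd3 at 1 of 345 bases. The first 60 bases of the annotated transcripts are printed to show each copy beside its source, with capitals at the position where the second pair differs.
Gm28661: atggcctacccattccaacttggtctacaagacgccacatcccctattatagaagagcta
mt-Co2: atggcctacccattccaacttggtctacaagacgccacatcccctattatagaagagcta
Gm28438: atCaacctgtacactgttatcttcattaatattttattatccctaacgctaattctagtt
mt-Nd3: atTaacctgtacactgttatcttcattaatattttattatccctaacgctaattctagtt

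Over the 13 mitochondrial mRNAs the median log2 fold change was -0.52 in males and 0.40 in females. The difference, males minus females, was -0.86 for mt-Nd1 (SE 0.205), -1.09 for mt-Nd5 (SE 0.229) and -0.79 for mt-Cytb (SE 0.191), 3 genes without a copy among the 7, and none of these passed the test (edgeR's adjusted p 0.216 to 0.334).

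Per kilobase of transcript, mt-Co2, mt-Atp6, mt-Co3, mt-Nd3 and mt-Nd4l, which are covered by copies almost from end to end, had median levels of 55.9 to 410 CPM per kb. The other mitochondrial mRNAs, which are covered in part (mt-Co1 and mt-Nd4) or have no copy among the 7, had medians of 2981 to 12400 CPM per kb. mt-Atp8, which has no annotated copy of its own among the 7, lay lower, at 19.7 CPM per kb. It spans bases 7766 to 7969 of the mitochondrial genome, between mt-Co2 (end 7696) and mt-Atp6 (start 7927), and it overlaps mt-Atp6. The copies of these neighbours, Gm28661 and Gm10925, flank bases 24614651 to 24614885 of chromosome 1, a stretch that was not compared with mt-Atp8. How reads that match several places were counted is not given in the sources used here, and its part in these 4 differences was not tested. With the mitochondrial genes and all copies but Gm29216 left out before normalization, the interaction gave 0 DEGs. Gm29216 matches part of mt-Co1.

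The other 4 genes were Dusp10, Tmem267, Tacr3 and Gm44799. Dusp10, a phosphatase that turns off stress kinases, held 17.4, 15.8 and 15.1 CPM in the females of 3 dpl and 8.77 and 7.77 CPM in those of 7 dpl. In males it held 9.87 and 12.02 CPM at 3 dpl and 15.6, 14.5 and 14.1 CPM at 7 dpl. The sexes thus went opposite ways, by -0.93 in females (SE 0.153) and 0.45 in males (SE 0.148), and the difference was 1.38 (SE 0.213). Tacr3, the neurokinin receptor found in some cone bipolar cells, held 19.4, 20.9 and 19.3 CPM in females at 3 dpl and 11.5 and 13.2 CPM at 7 dpl. In males Tacr3 held 10.2 and 12.8 CPM at 3 dpl and 15.9, 16.6 and 19.3 CPM at 7 dpl, with a difference of 1.27 (SE 0.216). Female control 7 dpl replicate 2 held 18.5 CPM of Dusp10 and 29.6 CPM of Tacr3, above the females of 3 dpl and not near the other 2 females of 7 dpl. Tmem267 was highest in the females of 3 dpl, at 34.3 to 39.3 CPM, and lay between 15.5 and 21.7 CPM in the other 7 libraries.

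Within males the other genes past the test were Tns3 and Myh4. Tns3, a focal adhesion protein, fell from 113 and 147 CPM at 3 dpl to 66.9, 67.2 and 69.4 CPM at 7 dpl, a log2 fold change of -0.92 (SE 0.140, edgeR's adjusted p = 0.0667), while females held 93.0 to 128 CPM across both days. The call of Myh4 (edgeR's adjusted p = 0.0819) rested on the 1 library with muscle transcripts. The 3 DEGs of males became 0 without male control 7 dpl replicate 3 and 9 without male control 7 dpl replicate 1. Leaving out either male library of 3 dpl leaves 1 library in that group, and those counts are not given here.

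**Figure D4:**
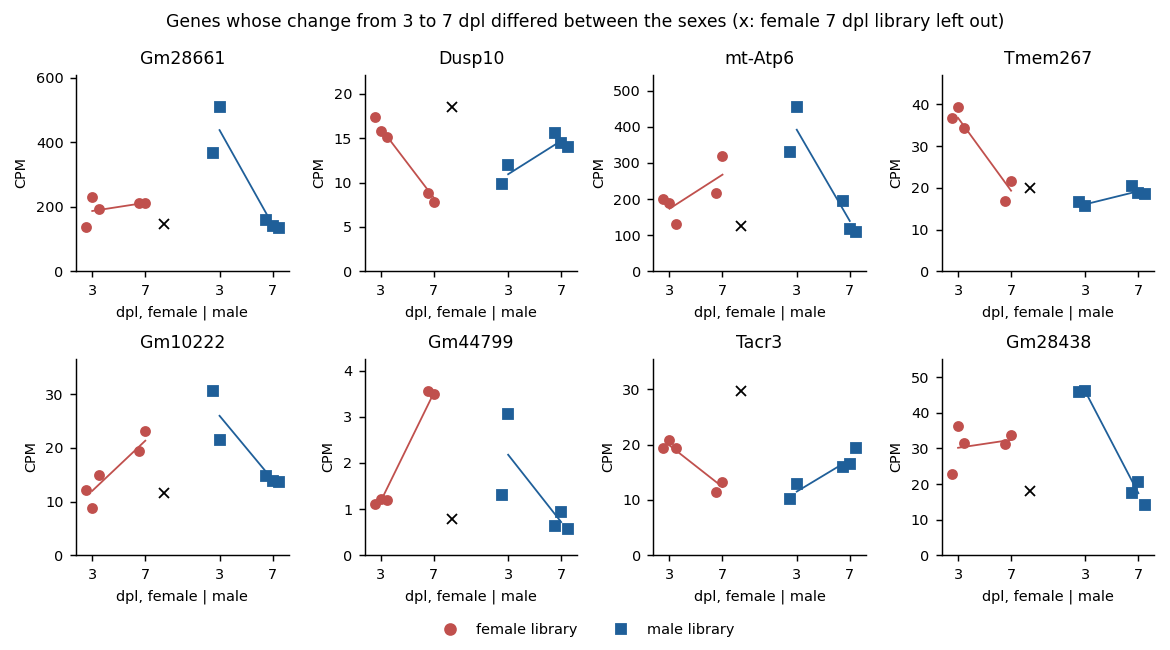
Panels plot the level in CPM (vertical axes, from 0) of the genes whose change differed between the sexes, at 3 and 7 dpl in females and in males, with 1 symbol a library, lines between the group means and a cross for the female 7 dpl library that was left out. Gm28661 reaches 367 and 508 CPM in the males of 3 dpl and stays between 135 and 231 CPM in the other 8 libraries.

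The leading genes were then read in libraries that took no part in choosing them. The same first 31 columns of the count table hold 10 libraries of SCFA-treated mice of 3 and 7 dpl, which share no sample with the untreated ones. At 3 dpl these were female replicates 1 to 3 and male replicate 1, and at 7 dpl replicates 1 to 3 of each sex. One of them, female SCFA 3 dpl replicate 2, held 377700 CPM of lens transcripts in sum over the lens list, where the other 9 held 82.3 to 824 CPM, so that values are given with and without it. Of the 14 lower genes 11 had a negative log2 fold change there, and of the 15 higher genes 9 had a positive one. Of the 921 genes with an unadjusted p under 0.05 in untreated retina, 70.8% had the same sign in the SCFA libraries, beside 63.6% of all 16560 genes tested in both. Without the lens-rich library these numbers were 10 of 14, 11 of 15, 64.9% and 59.8%. These shares are given as a description, since genes are not independent. No gene passed the test between days in these SCFA libraries either (0 of 17250 by edgeR, smallest adjusted p 0.175, with 1154 at an unadjusted p under 0.05), and without the lens-rich library 4 did (smallest adjusted p 0.0981, with 603 of 17213 at an unadjusted p under 0.05).

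Spp1 had a log2 fold change of -0.65 in these SCFA libraries (SE 0.285, 95% interval -1.27 to -0.03), less than the -1.44 of untreated retina, with 29.2 to 78.6 CPM at 3 dpl and 24.3 to 51.0 CPM at 7 dpl. Without the lens-rich library Spp1 had -0.65 (SE 0.298), Rgs5 -0.06 and Trpm1 0.18. Whether the change of Spp1 differs from that of untreated retina was not tested. With all 10, Rgs5 had -0.12 (SE 0.208), with 74.0 to 130.2 CPM at 3 dpl and 84.9 to 147 CPM at 7 dpl, and the days overlapped. Trpm1 had 0.22 (SE 0.127), and Dnah10 -0.14 (SE 0.498). Cd24a had -4.27, with 1604 CPM in the lens-rich library where the median of the 4 libraries of 3 dpl was 18.6 CPM, and 0.15 without that library. Tbx22, a T-box transcription factor gene, lay at 0 to 0.0929 CPM at 3 dpl, under the floor, and at 0.208 to 1.198 CPM at 7 dpl. Other libraries held it at levels between, with 0.606 and 0.405 CPM in the untreated males of 3 dpl in the later columns, up to 0.519 CPM in the SCFA libraries of 3 dpl there, and 0.266 CPM in female control 7 dpl replicate 2.

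Gliosis genes in the SCFA libraries had 7 of 33 lower at an unadjusted p under 0.05 with a median of -0.18. The lens-rich library held 276 CPM of Hmox1 and 53.9 CPM of Lgals3, the highest of the SCFA libraries of 3 and 7 dpl, and without it 3 gliosis genes were lower and the median was -0.13. Matrix genes had 6 of 34 lower and 1 higher with a median of -0.22, and without that library 1 lower and 2 higher with a median of 0.02. Vessel genes had 1 of 25 lower with a median of -0.16, and 0 without it. Pigment genes had 8 of 20 lower with a median of -1.001, and 5 lower with a median of -0.57 without it, where untreated retina had 6 higher.

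The last 12 columns of the count table hold 2 more untreated male libraries of 3 dpl, and 6 untreated libraries of 14 dpl lie in both sets of columns. Their levels are set beside those above with no test. In the 2 further males of 3 dpl mitochondrial mRNA made up 2.86% and 2.81% of the counts. In the 10 libraries compared it made up 5.21% to 9.05%. At 14 dpl female control replicates 2 and 3, of the last 12 columns, held 2.50% and 3.24%, and the others 4.71% to 8.17%. Set of columns and library cannot be told apart in these values, and how far the sets differ in other genes was not tested. The 2 further male libraries of 3 dpl held 36.2 and 30.6 CPM of Spp1 and 68.1 and 71.8 CPM of Rgs5, which for Rgs5 is the range of 7 dpl. They also held 1.212 and 0.809 CPM of Dnah10 and 7.37 and 7.03 CPM of Abi3bp, of which the lower Dnah10 value lay inside the range of 3 dpl and the others above it. They held 2.98 and 6.88 CPM of Bcl3 and 15.3 and 27.3 CPM of Vwf, all above the range of 7 dpl. They held 1.57 and 1.52 CPM of Itgam and 153 and 165 CPM of Trpm1, none of them in the range of 3 dpl. Their Gfap, at 72.1 and 112 CPM, lay in the range of both days. At 14 dpl Spp1 lay between 18.7 and 34.1 CPM, Bcl3 between 0.789 and 1.08 CPM, Gfap between 35.8 and 50.1 CPM and Itgam between 0.566 and 1.504 CPM. All 6 libraries of 14 dpl thus lay below every one of the 5 libraries of 3 dpl for these 4 genes. With the 2 further males of 3 dpl counted, the days overlapped for Spp1, as 1 of these males, at 30.6 CPM, lay inside the range of 14 dpl. Itgam in these males, at 1.57 and 1.52 CPM, lay just above that of 14 dpl, and their Bcl3 and Gfap lay above it. Vwf at 14 dpl lay between 4.55 and 15.6 CPM and overlapped both earlier days, and Dnah10 and Mov10 lay between 0.486 and 1.02 CPM and between 2.44 and 4.98 CPM.

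**Figure D5:**
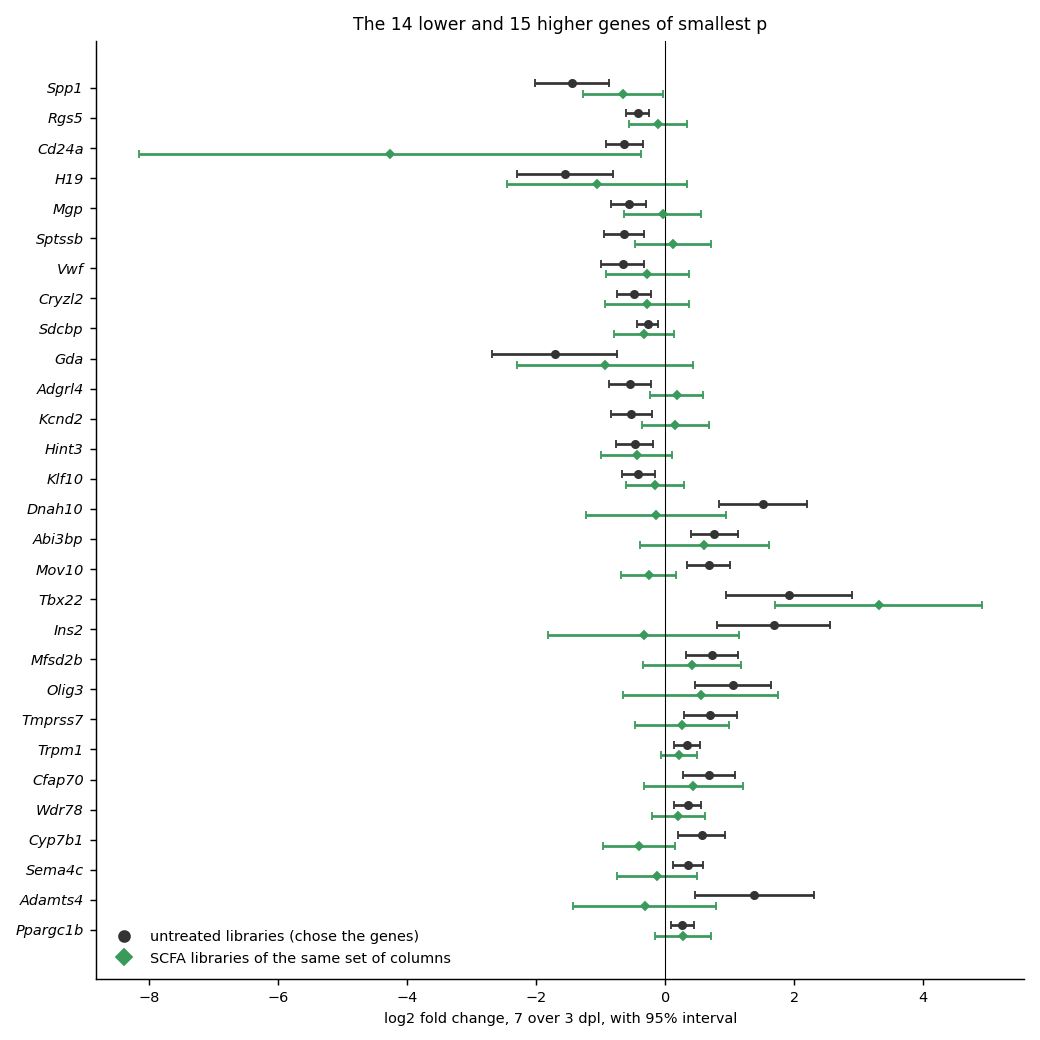
Points plot the log2 fold change, 7 over 3 dpl, with its 95% interval for the 14 lower and 15 higher genes, in the untreated libraries that chose them and in all 10 SCFA libraries of the first 31 columns. In the SCFA libraries 11 of the 14 lower genes lie left of 0 and 9 of the 15 higher genes lie right of it, and 26 of the 29 intervals cover 0.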

How the data were processed

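RNA of lasered retinas was sequenced, and the authors deposited counts of reads per gene, without normalization, for 54532 genes. The submitters' processing notes name mm10 and DESeq2. The deposited genotype label changes from sample to sample, and the treatment tag reads control on SCFA samples too. Groups were therefore taken from sample titles and library names, and strain and age from the study. The aligner, the annotation, the strand setting and the treatment of reads with several matches are not given in the sources used here. GENCODE M21 on GRCm38 named 54495 of the gene identifiers and supplied the transcript sequences. The 10 libraries held 14826957 to 20151172 counts, and a floor of 3 counts covers counting error only.

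Genes were filtered by filterByExpr, scaled by TMM and tested in R 4.3.3 with edgeR 4.0.16 (quasi-likelihood), with day and sex in the model and Benjamini-Hochberg adjustment over all genes tested. A gene was a DEG where the adjusted p was under 0.1 and the log2 fold change over 1 in either direction. SE is the size of the log2 fold change divided by the square root of F. CPM values were scaled over all 43 libraries. The change by sex came from a fit with an interaction term. The tests were checked on simulated data. Named genes were to be the 15 rising and 15 falling DEGs of smallest adjusted p with days that did not overlap, up to 5 members of each list with the smallest p, and the interaction genes. As no gene was a DEG, the smallest p took the place of the first part, and this was chosen after the values were seen. Some genes that the rule covers are not reported here. The members and the gene lists were chosen with earlier results of these data known. Alternatives were DESeq2 1.42.0, other size factors (RLE), no filter, 10 counts in every library, a robust fit, a fit of all 12 groups, no sex term, the replicate number as a block, and other sets of libraries. Tables and figures were made with Python 3.11.15, pandas 2.3.3, numpy 2.4.6 and matplotlib 3.10.9.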

Additional observations from a re-analysis of the deposited data

Results flagged for a closer look

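In each of 110 groups of 5 libraries (55 genes at 2 days), the highest or lowest library was compared with the others by Dixon's criterion, which by chance marks about 1 in 20 groups, and 18 stood apart. The 55 genes include markers named because they stand apart in single libraries, so that this count is not to be set against that share. Male control 3 dpl replicate 1 stood above the other 4 libraries of its day for 8 genes. It held 9.71 CPM of Bcl3 (others 2.18 to 3.80), 6.72 CPM of Arg1 (others 1.11 to 2.17), 11.4 CPM of Lgals3 (others 4.56 to 5.30) and 11.2 CPM of Timp1 (others 0.866 to 3.02). It also held 21.6 CPM of Hmox1, 6.67 CPM of Lox, 16.1 CPM of Col1a1 and 47.9 CPM of Thbs1.

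Male control 7 dpl replicate 3 stood highest of its day for Mbp (491 CPM), Mobp (143 CPM), Gfap (129 CPM) and Crym (109 CPM). Female control 3 dpl replicate 2 stood highest for Cryaa (160.2 CPM) and Krt5 (23.3 CPM), and male control 3 dpl replicate 2 for Myh4 (11.1 CPM). At 7 dpl, female control replicate 1 was highest for Krt5 (6.34 CPM) and lowest for Bcl3 (0.761 CPM, others 2.04 to 2.35), and female control replicate 3 was lowest for Spp1 (20.9 CPM, others 26.7 to 28.7).

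By the interaction test, the change from 3 to 7 dpl differed between males and females for 8 genes, each at edgeR's adjusted p of 0.0911. The difference on the log2 scale, males minus females, was -1.79 for Gm28661, 1.38 for Dusp10, -2.13 for mt-Atp6, 1.18 for Tmem267, -1.72 for Gm10222, -3.18 for Gm44799, 1.27 for Tacr3 and -1.51 for Gm28438. The largest, Gm44799, is a gene of low counts, at 0.575 to 3.55 CPM.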

How the results depend on the processing

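The count of DEGs between days was 0 and stayed 0 except in 3 settings. It was 57 with no filter on low counts (185 genes past the test), and 1, Spp1, both without the libraries with most lens and muscle transcripts, a setting added after seeing the data, and without male control 3 dpl replicate 2. Leaving out each library in turn thus gave 0 to 1 DEGs and 0 to 1 genes past the test, and DESeq2 gave 1 gene past the test. With no filter the model pooled the spread of all genes into its trend, with 219254 degrees of freedom per gene against 14.5, and Mobp and Mbp, high in the myelin-carrying males, were among its calls. At an unadjusted p under 0.05 the count of genes, 936, ran from 526 with female control 7 dpl replicate 2 added to 1747 with no filter, and was 1738 without male control 3 dpl replicate 1. The 8 interaction DEGs became 40 with DESeq2, 196 with no filter, 2 with the replicate block and 0 with female control 7 dpl replicate 2 added. They became 0 without both myelin-carrying males and 0 without mitochondrial genes and their copies (Gm29216 was kept). Their count was 0 to 38 when a library of a group of 3 was left out. Of the single libraries, leaving out female control 3 dpl replicate 3 gave 38, female control 7 dpl replicate 1 gave 37, and male control 7 dpl replicate 2 or 3 or female control 7 dpl replicate 3 gave 0. The 3 DEGs of males ran from 0 to 9 and the 0 of females from 0 to 21 when libraries were left out, and females had 12 with DESeq2. The SCFA libraries gave 0 DEGs between days and 4 without female SCFA 3 dpl replicate 2, the lens-rich library, a setting added after seeing the data. Leaving out a male library of 3 dpl or a female one of 7 dpl leaves 1 library in that group. The spread then comes from the other groups of the fit. The cause of these changes in count was not tested. The log2 fold change of Col1a1, -1.23, ran from -1.54 to 0.10 when each library was left out, the last without male control 3 dpl replicate 1.

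Whether replicate numbers pair the libraries was not settled. Deviations of libraries with the same number correlated between -0.28 and 0.24 over 12 pairs, 5 of them over 0.1. Of 10 libraries, 4 correlated best with their own number. Within a sex and across days, same-number pairs had 0.241 and 0.219 in females and 0.145 and 0.11 in males. Pairs of other numbers there had -0.241 to 0.059, and same-number pairs between the sexes -0.279 to 0.112. In a group of 2 libraries the deviations mirror each other, so that these values are not independent. With the replicate block, which joined both sexes by number, 0 DEGs and 0 genes past the test remained between the days. In that fit 557 genes had an unadjusted p under 0.05, and a block within each sex was not fitted.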
